A study of Oncorhynchus mykiss with 18 samples.

Results

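The DMC1 hotspots of TAC-1 and TAC-3, a pair of rainbow trout with no Prdm9 allele in common, were compared by the position, width and value of every hotspot in the authors' final lists. TAC-1 had 616 hotspots and TAC-3 had 209, together 825 of the 2749 hotspots of the series. A hotspot was called shared when its central 400 bp had at least 1 bp in common with the central 400 bp of a hotspot in the other list, and private otherwise. This gave 57 shared hotspots, each paired with exactly 1 hotspot of the other list, and left 559 hotspots private to TAC-1 and 152 private to TAC-3. Every peak in the lists is called a hotspot here, as the lists do not separate kinds of peaks. The forward and reverse strand profiles that mark a site of DNA breaks were not analysed here, so whether the shared peaks are such sites was not tested, and all values of shared hotspots below carry this limit.

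TAC-1 carried the Prdm9 alleles 1 and 5, TAC-3 the alleles 2 and 6, and RT-52, which was used only for reference, the alleles 1 and 2. RT-52 thus had 1 allele in common with each of the others. The genotypes were those given in the study's methods, since the sample labels do not state them. All were fish of the INRA-AUT strain. The testes of TAC-1 and TAC-3 were at maturation stage III, and those of RT-52 at stage IV. DMC1-SSDS, chromatin immunoprecipitation of DMC1 followed by enrichment and sequencing of single-stranded DNA, was performed on 2 replicates of each individual. Both replicates of TAC-1 and of TAC-3 were precipitated with the same rabbit antibody, and those of RT-52 with this antibody and with another raised in a guinea pig. H3K4me3 and H3K36me3 ChIP-seq peaks were from the same testes of TAC-1 and TAC-3. Each genotype was that of 1 fish, and the replicates of a fish entered a single list, so that no replicate error could be given. Each test below compares these lists of hotspots, not genotypes. TAC-1 also had more mapped DMC1-SSDS reads than TAC-3, and depth and genotype cannot be told apart as sources of a difference between the lists.

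PRDM9 is a DNA-binding histone methyltransferase whose zinc finger array recognizes particular sequence motifs. It deposits H3K4me3 and H3K36me3 around these motifs, and meiotic DNA double-strand breaks (DSBs) form nearby, so that alleles with different zinc fingers direct breaks to different sites. DMC1 is the meiosis-specific recombinase that coats the single-stranded tails left at a break, and the sites where it accumulates are read as DSB hotspots. In species that lack PRDM9, breaks form instead mostly at promoters and other sites that carry H3K4me3 independently of it.

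Shared hotspots made up 9.25% of the TAC-1 list (57 of 616, 95% Wilson interval 7.21% to 11.8%) and 27.3% of the TAC-3 list (57 of 209, 21.7% to 33.7%). These intervals, like all those below, cover counting error only. Of the 57 pairs, 51 lay on assembled chromosomes and 6 on unplaced scaffolds. Unplaced scaffolds thus held 10.5% of the shared hotspots, against 15 of the 559 private to TAC-1 (2.68%) and 6 of the 152 private to TAC-3 (3.95%). Few private hotspots had a hotspot of the other list within 10 kb. The nearest TAC-3 hotspot was over 1 Mb away for 357 of the 547 hotspots private to TAC-1 that had a TAC-3 hotspot on their sequence (65.3%), and closer than 10 kb for 7 of them. The nearest TAC-1 hotspot was over 1 Mb away for 53 of 147 hotspots private to TAC-3 (36.1%) and closer than 10 kb for 6. These shares depend on the length of the other list, 209 hotspots in TAC-3 and 616 in TAC-1, and cannot be compared with each other. Near misses were few, and overlap of the whole intervals in place of the central 400 bp added 7 pairs.

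The first question was whether the lists differed in their distribution among the 32 chromosomes. TAC-1 had more hotspots than TAC-3 on every chromosome, with 3.02 times as many over all chromosomes together (595 and 197). In TAC-1 the density was between 0.109 hotspots per Mb on chromosome 13 and 0.461 on the Y chromosome, with a median of 0.268. In TAC-3 it was between 0.0227 hotspots per Mb on chromosome 31 and 0.191 on chromosome 32, with a median of 0.0832. The densities of the lists were related across chromosomes (Spearman rho = 0.53, Pearson r = 0.55 over 32 chromosomes, which share length and assembly quality). The 51 shared sites on chromosomes count in both densities, and the correlation was not computed without them. They also count in both lists in the chromosome tests below, where private hotspots alone likewise gave 0 chromosomes that passed. Chromosome length itself was related to the number of hotspots in TAC-1 (rho = 0.57) and in TAC-3 (rho = 0.40). With the density of hotspots, length had a rho of -0.37 in TAC-1 and of -0.09 in TAC-3.

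The share of a list that lay on a chromosome differed between TAC-1 and TAC-3 for 0 of 32 chromosomes (0% called, two-sided Fisher's exact tests with Benjamini-Hochberg adjustment). Without adjustment, 1 chromosome was under 0.05. This was chromosome 11, with 25 TAC-1 hotspots (4.20% of the list) and 2 TAC-3 hotspots (1.02%), for a p of 0.0388 and an adjusted exact p of 1. The next lowest p-values were those of chromosome 17, with 22 and 12 hotspots (exact p = 0.158), and of chromosome 4, with 11 and 7 (exact p = 0.172). The ratio of TAC-1 to TAC-3 hotspots was between 1.57 on chromosome 4 and 13 on chromosome 31, where TAC-3 had a single hotspot. Shared pairs were found on 24 of the chromosomes, with at most 5 on any of them (chromosome 17).

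**Figure D1:**
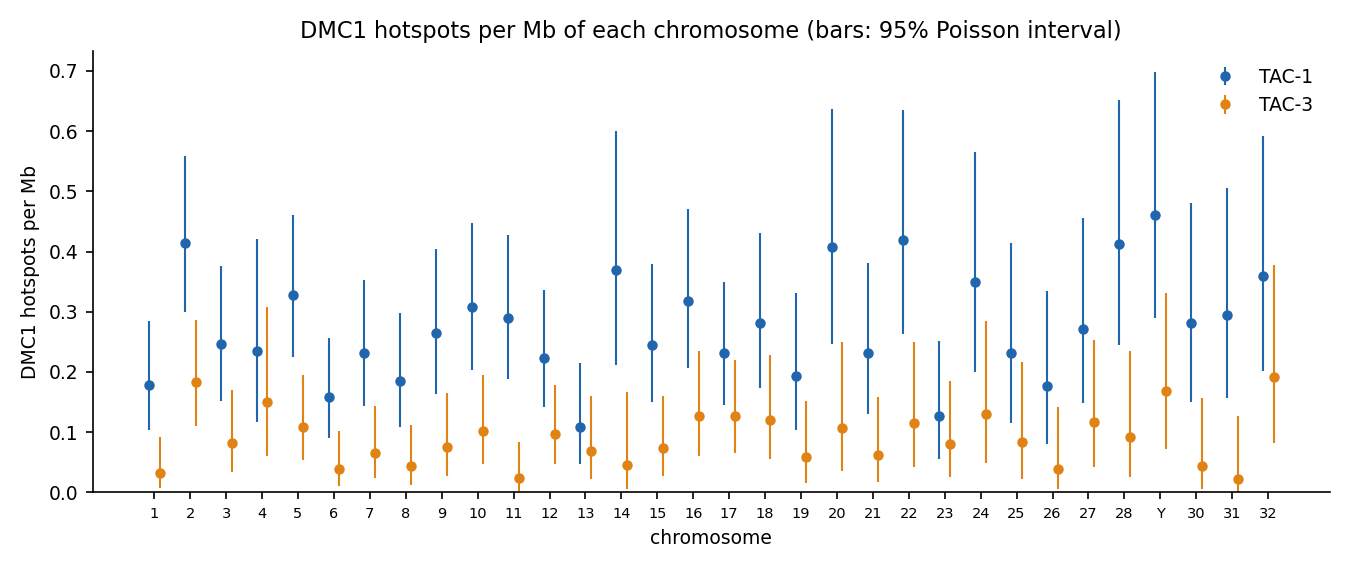
Number of DMC1 hotspots per Mb (vertical axis) on each of the 32 chromosomes (horizontal axis) in TAC-1 (blue) and TAC-3 (orange), with 95% Poisson intervals that cover counting error only. TAC-1 points lie above TAC-3 points on every chromosome, and the intervals of TAC-3 are wide because its chromosomes held between 1 and 19 hotspots each.

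Both lists were concentrated towards the chromosome ends. The outer 10% at each end, 20% of the length in all, held 345 of 595 TAC-1 hotspots (58.0%, 54.0% to 61.9%) and 101 of 197 TAC-3 hotspots (51.3%, 44.3% to 58.2%). This difference of 6.71 percentage points did not pass the test (two-sided Fisher's exact test, p = 0.115, adjusted exact p = 0.346 over the 3 tests between the lists). With the outer 20% at each end it was 10.4 points and passed (adjusted exact p = 0.00500). It did not pass with the outer 5% (1.65 points, adjusted exact p = 0.720) or the outer 5 Mb at each end (1.74 points, 0.679). Nor did it pass with private hotspots only (3.76 points, adjusted exact p = 0.480, all by Fisher's exact tests). The median distance to the nearest end was 5.71 Mb in TAC-1 and 6.40 Mb in TAC-3.

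A smaller share of the shared than of the private hotspots lay in the outer 10% at each end. Of the 51 shared pairs on chromosomes, 19 (37.3%, 25.3% to 51.0%) lay in the outer 10%. Of the hotspots private to TAC-1, 326 of 544 did (59.9%, 55.8% to 64.0%), and of those private to TAC-3, 82 of 146 (56.2%, 48.1% to 64.0%). The difference passed the test in TAC-1 (adjusted exact p = 0.00478) and in TAC-3 (adjusted exact p = 0.0308, both by two-sided Fisher's exact tests adjusted over the 16 tests of shared against private hotspots). These tests count the same 57 sites in each list and are not independent of each other. The shared hotspots lay at a median of 7.95 Mb from the nearest end, against 5.54 Mb for those private to TAC-1 and 5.41 Mb for those private to TAC-3. The innermost 20% of the chromosomes, from 40% to 50% of the length away from the nearest end, held 11 of the 51 shared hotspots (21.6%), 23 of the 544 private to TAC-1 (4.23%) and 10 of the 146 private to TAC-3 (6.85%). From 20% to 30% away the shared hotspots also had the largest share. There lay 8 shared hotspots (15.7%), 34 private to TAC-1 (6.25%) and 13 private to TAC-3 (8.90%). At other distances the shares lay closer together or in another order, and none of these was tested. From 30% to 40% away lay 2 shared hotspots (3.92%), 3.68% of those private to TAC-1 and 6.16% of those private to TAC-3. Within 1 Mb of an end lay 5 of the 51 shared hotspots (9.80%), 40 private to TAC-1 (7.35%) and 14 private to TAC-3 (9.59%). With the outer 20% at each end the difference was -27.0 points in TAC-1 and -19.3 points in TAC-3. It passed in both lists (Fisher's exact tests, adjusted exact p = 3.24e-05 and 0.0148). With the outer 5% at each end the difference passed in neither list (adjusted exact p = 0.227 in TAC-1 and 0.282 in TAC-3). The TAC-3 difference was also lost without the hotspots that overlapped an RT-52 hotspot (adjusted exact p = 0.231) and with overlap of the whole intervals (adjusted exact p = 0.0537).

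**Figure D2:**
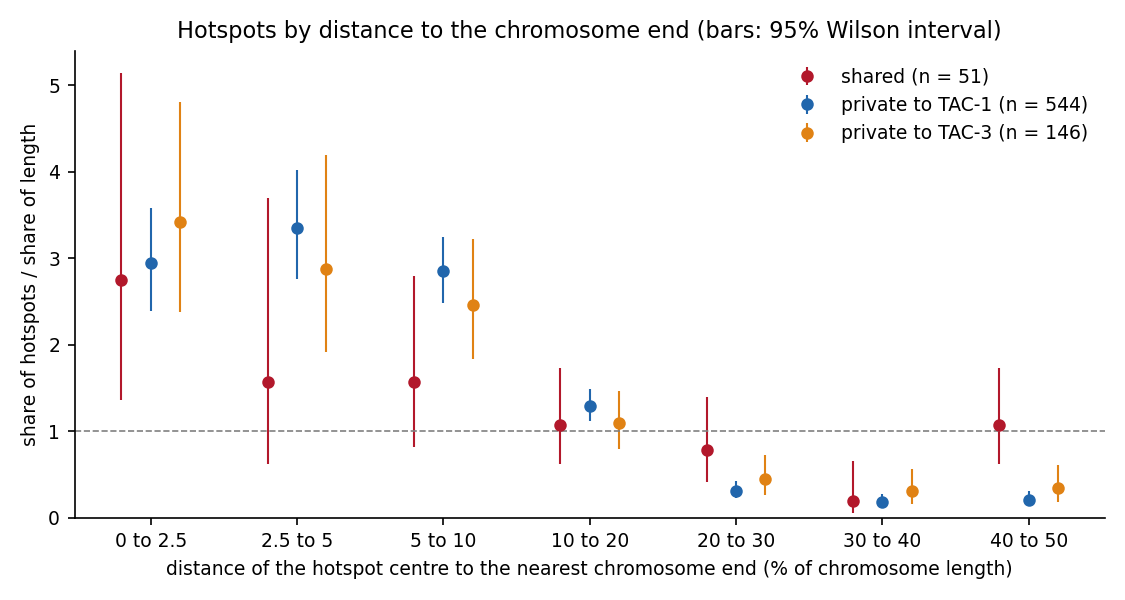
Share of hotspots divided by share of chromosome length (vertical axis, 1 marks an even spread) by distance of the hotspot centre to the nearest chromosome end in percent of chromosome length (horizontal axis), for shared hotspots (red), hotspots private to TAC-1 (blue) and hotspots private to TAC-3 (orange), with 95% Wilson intervals. Within 10% of the ends all private points lie above 2, and beyond 20% all private points lie below 0.5. The shared hotspots lie at 0.784 from 20% to 30% and at 1.08 from 40% to 50%. In the outermost 2.5% the shared point (2.75) is near the private ones (2.94 in TAC-1 and 3.42 in TAC-3). From 30% to 40% all lie below 0.5.

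Spacing was measured from each hotspot to the nearest hotspot of the same list. The median distance was 531 kb for TAC-1 hotspots and 2542 kb for TAC-3 hotspots. In the whole lists, 398 of 595 TAC-1 hotspots (66.9%) and 54 of 197 TAC-3 hotspots (27.4%) had another within 1 Mb. These distances and shares depend on the number of hotspots in a list. With the TAC-1 list reduced to the 209 hotspots of highest value, so that both lists had the same length, its median was 1415 kb. Of the 201 of these on chromosomes, 20 (9.95%) had another within 100 kb, against 15 of 197 in TAC-3 (7.61%), which did not pass the test (exact p = 0.480, adjusted exact p = 0.480). Within 1 Mb the shares were 39.8% in TAC-1 and 27.4% in TAC-3, a difference of 12.4 points that did pass (adjusted exact p = 0.0325). The TAC-1 list was cut by value for this while TAC-3 stayed uncut, and whether the cut changed the spacing was not tested. With private hotspots only, in lists of equal length, the difference within 100 kb was 0.611 points and did not pass. Pairs and triplets of hotspots under 100 kb apart formed 55 groups in the whole TAC-1 list and 7 in TAC-3, none larger than 3 hotspots.

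Shared and private hotspots did not differ in clustering at 100 kb beyond counting error. Another hotspot of the same list lay within 100 kb of 7 of 51 shared and 109 of 544 private hotspots in TAC-1 (a difference of -6.31 points, adjusted exact p = 0.438). In TAC-3 it did so for 5 of 51 shared and 10 of 146 private hotspots (a difference of 2.95 points, adjusted exact p = 0.596). Within 1 Mb, however, a neighbour was present for 20 of 51 shared and 378 of 544 private TAC-1 hotspots, 30.3 points less often at the shared ones (adjusted exact p = 0.000102), whereas the TAC-3 difference of 10.5 points in the same direction did not pass (adjusted exact p = 0.230). Neighbours were not compared at equal distance to the chromosome ends. Both lists were denser near the ends, and a smaller share of the shared than of the private hotspots lay there. Only 2 shared pairs were closer than 100 kb to each other. Both lay on chromosome 2. The pair from 4551087 to 4552352 (USDA_OmykA_1.1 assembly, TAC-1 boundaries, as in all positions below unless stated) was inside col14a1a, which encodes a fibril-associated collagen, and the pair from 4649433 to 4651298 was inside LOC110520696.

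The difference in hotspot width, the distance between the boundaries the authors gave, did not pass the test between the whole lists. The median was 1735 bp in TAC-1 (quartiles 1522 and 2254 bp) and 1654 bp in TAC-3 (1522 and 2366 bp), and 51.1% of TAC-1 and 46.4% of TAC-3 hotspots were wider than the median of both lists together (exact p = 0.262, adjusted exact p = 0.394). With the TAC-1 list cut to its 209 highest values the difference was 16.7 points and passed (adjusted exact p = 0.00258). This cut was by value, which was related to width in TAC-1 (Spearman rho = 0.39 over 616 hotspots), while TAC-3 stayed uncut. It therefore cannot decide whether widths differ between the lists. With private hotspots only the difference was -1.76 points and did not pass (Fisher's exact test, adjusted exact p = 0.715). Between shared and private hotspots the widths did differ. In TAC-1 the median was 1524 bp for shared and 1760 bp for private hotspots, and 15 of 57 shared against 293 of 559 private hotspots were wider than the list's median (26.3% and 52.4%, adjusted exact p = 0.000550). In TAC-3 the medians were 1526 and 1838 bp, and 14 of 57 shared against 90 of 152 private hotspots were wider than the list's median (24.6% and 59.2%, adjusted exact p = 4.05e-05).

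Many shared hotspots had nearly the same width. From 1516 to 1532 bp lay 21 of the 57 shared hotspots by their TAC-1 boundaries (36.8%, 25.5% to 49.8%), and 20 by their TAC-3 boundaries (35.1%, 24.0% to 48.1%). The same range held 30 of 559 hotspots private to TAC-1 (5.37%, 3.78% to 7.56%), 9 of 152 private to TAC-3 (5.92%, 3.15% to 10.9%) and 41 of 1924 in RT-52 (2.13%). This range was chosen after the widths were seen, and its shares are given without a test. Width and value were related among private hotspots (Spearman rho = 0.46 over 559 in TAC-1 and 0.46 over 152 in TAC-3), against a rho near 0 among shared ones (-0.02 in TAC-1 and -0.01 in TAC-3, 57 each).

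**Figure D3:**
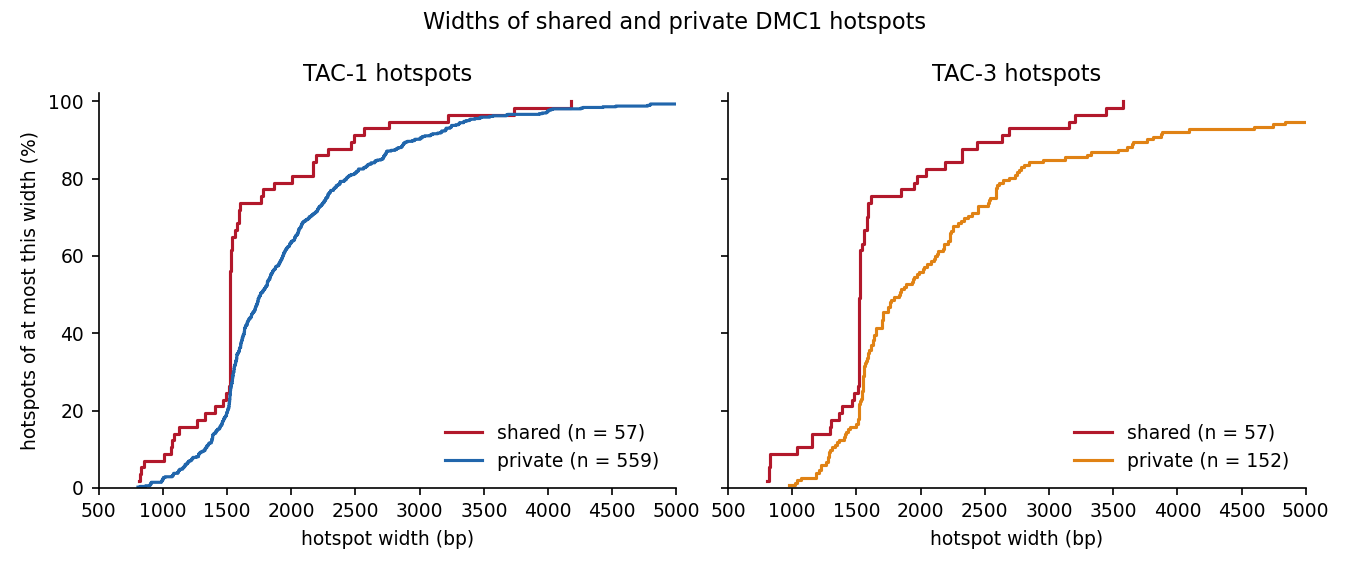
Cumulative share of hotspots (vertical axis, percent) at or below a width (horizontal axis, bp) for shared (red) and private hotspots in the TAC-1 list (left panel, private in blue) and in the TAC-3 list (right panel, private in orange), drawn up to 5000 bp although the widest TAC-3 hotspot measured 9006 bp. Both red curves have a near-vertical step close to 1524 bp, and the private curves climb gradually past their medians of 1760 and 1838 bp.

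The value the authors gave to each hotspot is a whole number that the lists do not name. It is taken here to be the output of the normalization by adjacent regions that the study's methods name, and this could not be checked. Shared and private hotspots were compared by it within a list, and between lists it is set side by side only at the shared pairs, as a description. Shared hotspots ranked higher than private ones. A hotspot was shared only if it was called in both lists. Whether this requirement by itself favours high values was not tested, so the tests of value describe these classes only. In TAC-1 the median value was 68 for shared and 57 for private hotspots, and 37 of 57 shared against 266 of 559 private hotspots were above the list's median (64.9% and 47.6%, adjusted exact p = 0.0254). In TAC-3 the medians were 69 and 55, and 37 of 57 shared against 65 of 152 private hotspots were above the list's median (64.9% and 42.8%, adjusted exact p = 0.00823). The TAC-1 difference did not pass in the upper part of each list (adjusted exact p = 0.166) or with 1 hotspot kept per group under 100 kb (adjusted exact p = 0.0589). Of the 41 TAC-3 hotspots with the highest values, the top 20% of the list, 23 were shared (56.1%, 41.0% to 70.1%), as were 6 of its 10 highest. In TAC-1, 18 of the 123 hotspots of the top 20% were shared (14.6%, 9.46% to 21.9%) and 3 of the 10 highest.

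At the 57 shared hotspots the values in TAC-1 and TAC-3 were closely related (Spearman rho = 0.74, and Pearson r = 0.88 for log10 values). The points share the genome position, the antibody and the stage, and no p-value is given. Without the pair of highest value rho was 0.72. The widths of the pairs were related as well (rho = 0.71).

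The highest hotspot of both lists was the same site. With values of 1691 in TAC-1 against 1769 in TAC-3, it lay on chromosome 27 inside LOC110508036, from 40361001 to 40361812 by its TAC-1 boundaries. In TAC-3 the start, at 40361013, was 12 bp away, and the end, at 40362558, 746 bp away. The next pair, on chromosome 7 inside LOC110528239, had values of 855 in TAC-1 and 889 in TAC-3. Its start was at 64674222 in TAC-1 but 64674591 in TAC-3, whereas its end, at 64675625 in TAC-1, was 1 bp away in TAC-3. On chromosome 18, from 67563158 to 67564717, a pair 5827 bp from LOC118941009 had values of 402 in TAC-1 and 306 in TAC-3. On chromosome 4, from 5644118 to 5645709, the values were 253 in TAC-1 and 295 in TAC-3, at 53332 bp from LOC110521990. A pair on an unplaced scaffold had the same boundaries in both lists, with values of 214 in TAC-1 and 264 in TAC-3.

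The other 5 of the 10 pairs with the highest mean rank had TAC-1 values between 127 and 207. The pair on chromosome 17 from 38305046 to 38306567 had values of 207 in TAC-1 and 148 in TAC-3, the same boundaries in both lists, and lay 10678 bp from ptprt, which encodes a receptor-type protein tyrosine phosphatase. The pair on chromosome 28 from 7043484 to 7044813, inside the long non-coding RNA gene LOC110508412, had values of 162 in TAC-1 and 129 in TAC-3. It was the only one of these 10 with a histone mark, and both H3K4me3 and H3K36me3 were called there in TAC-1. The others were the chromosome 2 pair inside LOC110520696 named above (127 in TAC-1 and 190 in TAC-3), a pair on chromosome 22 from 6646652 to 6648173 (143 and 117) and a pair on chromosome 27 from 49979381 to 49980978 inside LOC110519322 (128 and 118).

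Some pairs held very different ranks. The largest difference towards TAC-1 was on chromosome 7 from 78348957 to 78353138, 29927 bp from rtf2, which encodes a replication termination factor. Its value was 164 in TAC-1, at percentile 91.9 of the list, and 33 in TAC-3, at percentile 7.66, and it measured 4182 bp in TAC-1 but 1558 bp in TAC-3. The largest difference towards TAC-3 was on chromosome 8 from 88809443 to 88811222 inside LOC110530889, with 48 in TAC-1 (percentile 35.3) and 95 in TAC-3 (percentile 80.9).

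In each list the highest private hotspot had a lower value than the shared pairs inside LOC110508036 and LOC110528239. It had a higher value than every other shared hotspot. In TAC-1 the 3 highest private values were 650, 489 and 419. The first was on chromosome 14 (31923127 to 31926472, 19932 bp from the long non-coding RNA gene LOC118938723). The second was on chromosome 18 (69743806 to 69746241, 18296 bp from LOC110496768). The third was on chromosome 24 (38983746 to 38988273, inside psmd8, which encodes a subunit of the proteasome). The hotspots on chromosomes 18 and 24 carried both histone marks of TAC-1, and the psmd8 site also overlapped an RT-52 hotspot. In TAC-3 the values were 324 on chromosome 16 (39726203 to 39732168, inside LOC110491945), 306 on chromosome 2 (15324988 to 15333993, inside LOC110535793) and 204 on chromosome 5 (28257159 to 28260922, inside LOC110518653). Of these 3, the chromosome 2 site had an H3K4me3 peak of TAC-3, and none overlapped an RT-52 hotspot. By whole intervals the chromosome 2 site overlapped TAC-1 hotspots with values of 146, 165 and 77. It was private only by the rule on the central 400 bp, with the nearest TAC-1 centre 417 bp from its own. All 6 were wider than any of the 10 highest-ranked shared pairs, from 2436 to 9006 bp.

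The centres of shared hotspots lay close together. The offset between the centres of a pair had a median of 16 bp, with quartiles of 0 and 103 bp, and was at most 50 bp in 38 of 57 pairs (66.7%). The rule bounds it below 400 bp, and with pairs formed by overlap of the whole intervals the median was 25.5 bp. The offset was 0 in 15 pairs, and 14 of these had the same start and the same end in both lists. The remaining pair, on chromosome 10 from 85716995 to 85718518 inside LOC110513755, had boundaries 1 bp apart on each side. The largest offset was 399 bp, at a pair on chromosome 17 from 52031790 to 52033959 inside LOC110494059 with low values (38 in TAC-1 and 32 in TAC-3).

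Common boundaries were frequent at shared hotspots and rarer in the other pairs of lists. In 22 of 57 pairs (38.6%, 27.1% to 51.6%) the start and the end in TAC-1 were both within 10 bp of those in TAC-3, and in 44 pairs (77.2%) at least the start or the end was. As a reference, the same count was made for hotspot pairs of individuals with 1 allele in common, a comparison chosen after the TAC-1 and TAC-3 pairs had been seen. Of 169 pairs of TAC-1 with RT-52, 3 had both boundaries within 10 bp (1.78%, 0.606% to 5.09%), as did 1 of 44 pairs of TAC-3 with RT-52 (2.27%, 0.402% to 11.8%). Both shares were lower than that of TAC-1 with TAC-3 (two-sided Fisher's exact tests, adjusted exact p = 4.90e-12 and 6.64e-06). The median offset was 16 bp for TAC-1 with TAC-3, 84 bp for TAC-1 with RT-52 and 83 bp for TAC-3 with RT-52. The values of the pairs were related with rho = 0.74 for TAC-1 with TAC-3, 0.48 for TAC-1 with RT-52 and 0.55 for TAC-3 with RT-52. RT-52 also differed from the others in stage and in the antibody of 1 replicate, and these cannot be told apart from the common allele. The hotspots of its pairs were wider. Median widths were 1912 bp in TAC-1 and 2310 bp in RT-52 for their pairs. They were 1961 bp in TAC-3 and 2577 bp in RT-52 for theirs, against 1524 and 1526 bp for TAC-1 with TAC-3. Boundaries were not compared at equal width.

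The difference in width was smaller without the 22 pairs with common boundaries. Of these 22, 17 measured from 1516 to 1532 bp in TAC-1 (77.3%). They lay outside genes more often than not, with 6 of the 18 on chromosomes inside a gene, against 21 of 33 of the other shared pairs, a count given without a test. None of the 22 had an H3K4me3 or an H3K36me3 peak in either individual. Without them, the remaining 35 shared hotspots were 10.4 points less often above the median width than private ones in TAC-1 and 15.5 points in TAC-3, and neither difference passed (adjusted exact p = 0.394 and 0.194). The difference in value was then 19.7 points in TAC-1, which did not pass (adjusted exact p = 0.0704), and 23.0 points in TAC-3, which did (adjusted exact p = 0.0355). Neither was smaller than with these pairs (17.3 and 22.1 points).

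**Figure D4:**
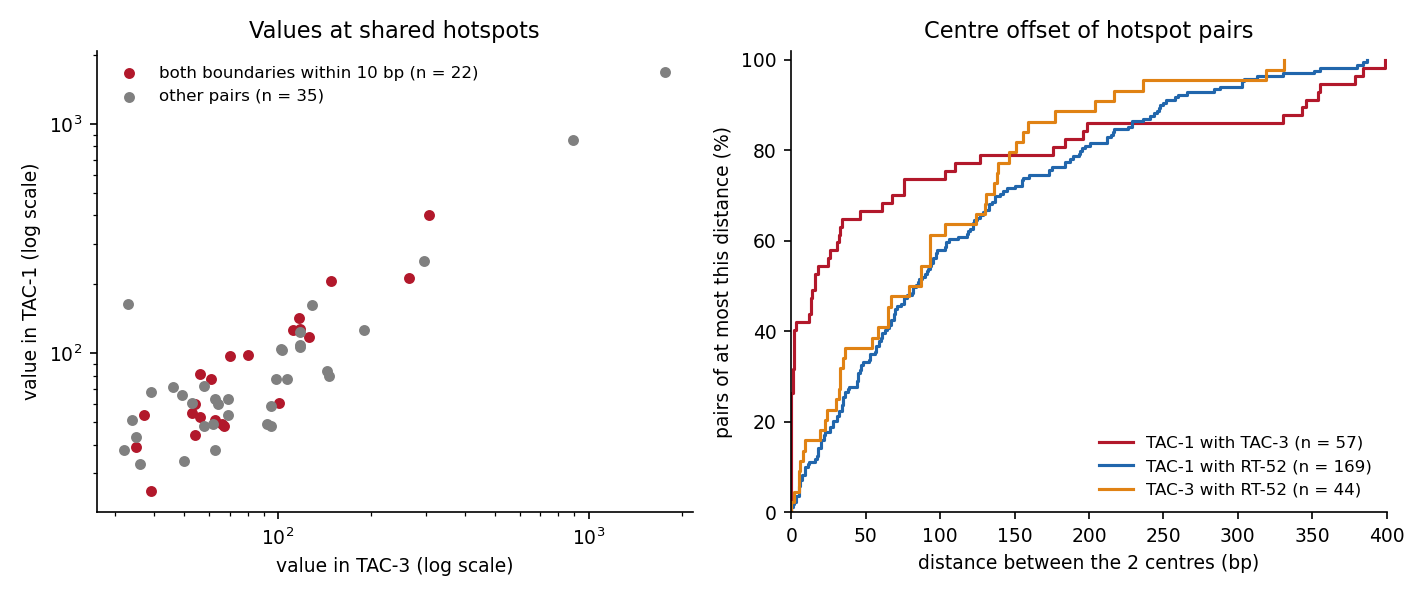
Left panel, authors' value of each of the 57 shared hotspots in TAC-1 (vertical axis) and in TAC-3 (horizontal axis), both on log scales, with the 22 pairs whose start and end are both within 10 bp in red and the other 35 in grey. Right panel, cumulative share of hotspot pairs (vertical axis, percent) at or below a distance between centres (horizontal axis, bp) for TAC-1 with TAC-3 (red, median 16 bp), TAC-1 with RT-52 (blue, 84 bp) and TAC-3 with RT-52 (orange, 83 bp).

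Shared hotspots rarely coincided with the histone marks that PRDM9 deposits. An H3K4me3 peak of TAC-1 overlapped the central 400 bp of 4 of the 57 shared TAC-1 hotspots (7.02%, 2.76% to 16.7%) and of 219 of the 559 private ones (39.2%, 35.2% to 43.3%). An H3K4me3 peak of TAC-3 overlapped 0 of the 57 shared TAC-3 hotspots (95% Wilson interval 0% to 6.31%, and 5.26% by the limit of 3 counts that a count of 0 allows) and 53 of the 152 private ones (34.9%, 27.8% to 42.7%). The difference passed in TAC-1 (adjusted exact p = 1.36e-06) and in TAC-3 (adjusted exact p = 6.79e-08). It also passed in both lists without the hotspots that overlapped an RT-52 hotspot, where it was 23.3 points in TAC-1 and 18.2 points in TAC-3 (adjusted exact p = 0.00102 for each), and in the upper part of each list by value.

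For H3K36me3 the shares were 3 of 57 shared and 127 of 559 private hotspots in TAC-1 (5.26% and 22.7%, adjusted exact p = 0.00202), and 2 of 57 shared and 39 of 152 private hotspots in TAC-3 (3.51% and 25.7%, adjusted exact p = 0.000370). The TAC-3 difference did not pass without the hotspots that overlapped an RT-52 hotspot (adjusted exact p = 0.0891). Neither own mark was found at 52 of 57 shared hotspots in TAC-1 (91.2%) and 55 of 57 in TAC-3 (96.5%), against 328 of 559 private to TAC-1 (58.7%) and 98 of 152 private to TAC-3 (64.5%). Of all 57 shared sites, none had an H3K4me3 peak in both individuals. The H3K4me3 list held 153665 peaks in TAC-1 and 50548 in TAC-3. With the TAC-1 peaks cut to the number of TAC-3, 1 shared and 167 private TAC-1 hotspots carried the mark. The H3K36me3 list held 162044 peaks in TAC-1 and 40535 in TAC-3. With the same cut, 1 shared and 60 private TAC-1 hotspots carried H3K36me3. The difference was then 8.98 points (Fisher's exact test, adjusted exact p = 0.0436).

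The marks at private hotspots were mostly those of the individual itself. Among hotspots private to TAC-1, 211 of 559 (37.7%) had an H3K4me3 peak of TAC-1 and none of TAC-3, 8 had peaks of both and 5 (0.894%) had a peak of TAC-3 only. Among hotspots private to TAC-3, 48 of 152 (31.6%) had an H3K4me3 peak of TAC-3 and none of TAC-1, 5 had peaks of both and 4 (2.63%) had a peak of TAC-1 only.

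Shared hotspots were also narrower than private ones where no own H3K4me3 peak was called. Among hotspots without an own H3K4me3 peak, a set chosen after these results were seen, the median width was 1524 bp for 53 shared and 1735 bp for 340 private hotspots in TAC-1, and 1526 bp for 57 shared and 1770 bp for 99 private hotspots in TAC-3. The difference in the share above the median width was 29.3 points in TAC-1 and 34.6 points in TAC-3, and passed in both (adjusted exact p = 0.000373 for each). This set held all 22 shared pairs with common boundaries. Without those pairs the width difference over all hotspots passed in neither list, as given above. The set was not tested without them.

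Overlap with RT-52 was also rarer at shared hotspots, although RT-52 had an allele in common with each of TAC-1 and TAC-3. An RT-52 hotspot was found at 2 of 57 shared hotspots (3.51%, 0.968% to 11.9%), against 166 of 559 private to TAC-1 (29.7%, 26.1% to 33.6%, adjusted exact p = 1.44e-05) and 42 of 152 private to TAC-3 (27.6%, 21.1% to 35.2%, adjusted exact p = 0.000135). Among hotspots without an own H3K4me3 peak the difference was 15.9 points in TAC-1, which passed (adjusted exact p = 0.00601), and 5.58 points in TAC-3, which did not (adjusted exact p = 0.330). The sites common to all 3 individuals were on chromosome 5 from 60946 to 62017, 0.0615 Mb from the end of the chromosome and 27566 bp from palm2akap2, and on chromosome 15 from 39289559 to 39291088, 174467 bp from LOC110490842. At the site on chromosome 5 the value was 109 in TAC-1 and 118 in TAC-3. At that on chromosome 15, which had the same boundaries in both lists, it was 55 in TAC-1 and 53 in TAC-3. Neither histone mark was called at these sites in either individual.

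The share of hotspots inside genes did not differ detectably with this number of shared hotspots, whereas a gene boundary was close to a smaller share of the shared than of the private hotspots, which was not tested. The centre was inside an annotated gene for 27 of 51 shared hotspots (52.9%, 39.5% to 65.9%), for 311 of 544 private to TAC-1 (57.2%, adjusted exact p = 0.596) and for 84 of 146 private to TAC-3 (57.5%, adjusted exact p = 0.624). Nearly all of these genes were protein-coding (26 of 27 at shared hotspots, 305 of 311 at those private to TAC-1 and 79 of 84 at those private to TAC-3). A gene boundary lay within 1 kb of 0 of 51 shared hotspots by TAC-1 centres and 1 of 51 by TAC-3 centres, against 58 of 544 private to TAC-1 (10.7%) and 25 of 146 private to TAC-3 (17.1%), counts that were added after the lists were seen and are given without a test. Gene strands were not given, so a boundary may be a transcription start or end.

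**Figure D5:**
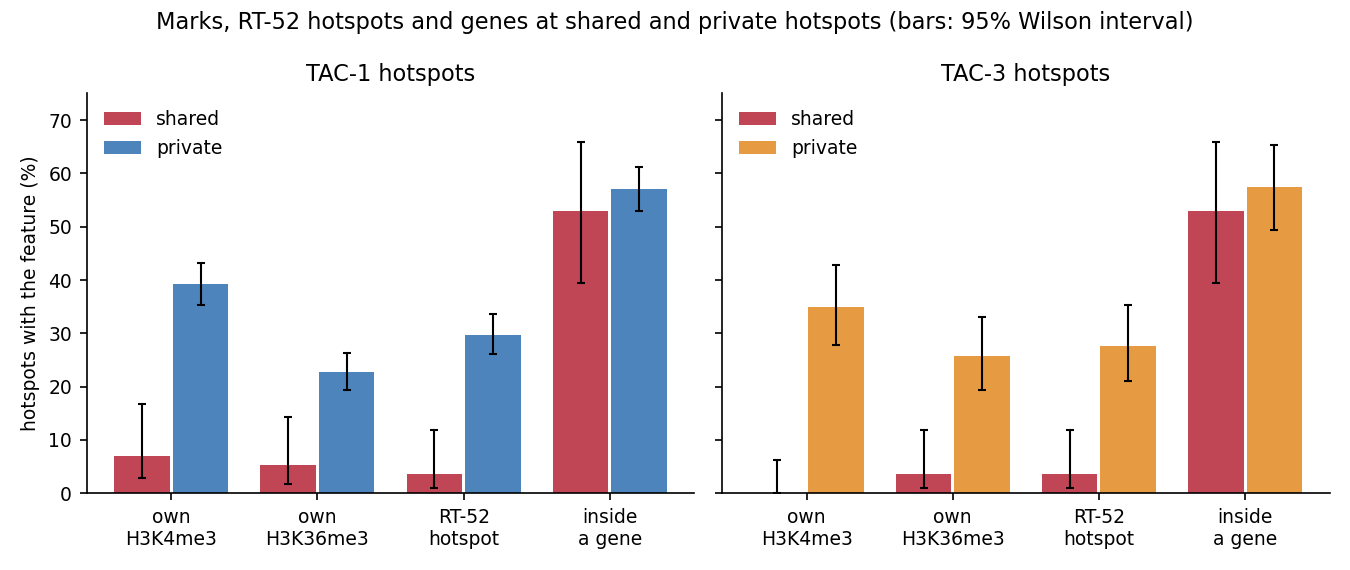
Percentage of shared (red) and private hotspots (blue in TAC-1, left panel, and orange in TAC-3, right panel) with an H3K4me3 peak or an H3K36me3 peak of the same individual, with an RT-52 hotspot, and with the centre inside a gene, with 95% Wilson intervals. The shared bars are at 7.02% or less for both marks and for RT-52 hotspots, and the intervals of shared and private hotspots overlap only for genes.

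The contrasts between shared and private hotspots were also compared between the lists. The odds ratio of shared against private hotspots for an own H3K4me3 peak was 0.130 in TAC-1 and 0.0162 in TAC-3, with 0.5 added to each count since no shared TAC-3 hotspot had the mark. For a width above the median, computed in the same way, it was 0.331 in TAC-1 and 0.230 in TAC-3. The difference between the odds ratios of TAC-1 and TAC-3 did not pass for any of the 8 measures (Zelen's exact test, lowest adjusted p = 0.984). With 57 shared sites this does not show that they were equal.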

How the data were processed

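DMC1-SSDS and histone ChIP-seq peak lists of rainbow trout testes were analysed. Per the study's methods, the authors aligned reads to USDA_OmykA_1.1 with BWA (0.7.17-r1188), called peaks with MACS2 (2.2.7.1) per replicate, kept reproducible DMC1 peaks by IDR on the pooled replicates and recentred them. Each hotspot has 1 deposited score per individual, and each histone peak a deposited mean MACS2 score. Scores were tested only within a list, and set side by side, also on a log10 scale, at shared pairs. Read depth per hotspot was not given, so precision rests on the number of hotspots. The code, tested on simulated data, ran in Python 3.11.15 (pandas 2.3.3, numpy 2.4.6, SciPy 1.17.1, and matplotlib 3.10.9 for the figures). Shares of hotspots were compared by two-sided Fisher's exact tests with Benjamini-Hochberg adjustment (threshold 0.05) over 16 tests of shared against private hotspots, over 32 chromosomes, or over 3 tests between the lists, and odds ratios by Zelen's exact test. Sequences were matched to chromosomes by H3K4me3 peaks at gene boundaries (22.2% or more of the peaks, against at most 7.71% at any other chromosome). The length of a chromosome was taken as the furthest end of any listed peak or annotated gene on it, not from the assembly. Densities per Mb, outer shares and distances to an end rest on this length. Genes were from the RefSeq table of the assembly (54080 of 72772 on chromosomes, without strand). The sites named were the 10 shared pairs of highest mean rank, the 3 highest private hotspots per list, the pairs with extreme offsets or rank differences, those with an RT-52 hotspot, the largest group of shared hotspots, and the chromosomes with the lowest p. Of the 15 pairs with an offset of 0, single ones are named and the rest counted. The comparisons, members and lists were chosen with earlier results of these data known. No genome sequence was used here, so motifs and base composition were not analysed. Alternatives concerned the overlap, the part of each list, the distances and the histone peaks used.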

Additional observations from a re-analysis of the deposited data

How the results depend on the processing

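The 20 tested results and the descriptive ones were recomputed under other settings, which gave 130 recomputed values. Of these, 106 were counted as the same. For tested results this means the same direction and side of the threshold. Descriptive results have no threshold and were counted as the same or as moved by their value. Differences below are in percentage points, with adjusted p from Fisher's exact tests. Shared against private, chromosome ends in TAC-3 were no longer past the threshold with overlap of whole intervals (-16.7), without hotspots overlapping RT-52 (-13.3), with the outer 5% (-9.94, and -9.87 in TAC-1) and among hotspots without H3K4me3 (-13.8). Values in TAC-1 were lost in the upper part of each list (15.8), with 1 hotspot per group (15.2) and without pairs with common boundaries (19.7). The last setting also lost the width difference (-10.4 in TAC-1 and -15.5 in TAC-3). H3K36me3 in TAC-3 was lost without hotspots overlapping RT-52 (-10.0), and RT-52 overlap in TAC-3 among hotspots without H3K4me3 (-5.58). Clustering within 1 Mb passed in TAC-1 (-30.3) and changed direction in TAC-3 (-10.5), and the gene difference in TAC-3 changed direction without hotspots overlapping RT-52 (2.27), neither past the threshold. TAC-1 against TAC-3, the outer 20% (10.4), spacing within 1 Mb (12.4) and spacing with the whole TAC-1 list (11.9) passed. Spacing within 1 Mb used the TAC-1 list cut by value. Spacing with the whole TAC-1 list set 595 hotspots against 197. As spacing depends on the number of hotspots, it cannot decide whether the lists differ in spacing. Chromosome ends did not pass with the outer 5% (1.65), the outer 5 Mb (1.74) or private hotspots only (3.76). Widths with the TAC-1 list cut to its highest values (16.7) passed, but this cut was by a value related to width. Widths of private hotspots changed direction (-1.76). The percentage shared was 12.4% in each list with the TAC-1 list cut to the length of TAC-3. Both boundaries were identical in 24.6% of the TAC-1 and TAC-3 pairs, 1.18% of the TAC-1 and RT-52 pairs and 2.27% of the TAC-3 and RT-52 pairs. Within 50 bp the shares were 50.9%, 5.33% and 6.82% in the same order. The causes were not tested. The base composition alternative was not run. No paired analysis was possible because each list holds 1 set of hotspots for both replicates, which also prevents leaving out a replicate. Each genotype was 1 fish, and 57 shared sites limit every contrast.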

Other observations

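A locus on chromosome 2 near 15.3 Mb was divided differently in the lists. TAC-1 had 3 hotspots there, within 6.47 kb of each other, from 15324987 to 15328556 (value 146), from 15328699 to 15331116 (165) and from 15332007 to 15334468 (77). TAC-3 had a single interval of 9006 bp from 15324988 to 15333993 (306) and a further hotspot from 15332145 to 15334466 (99). The last TAC-1 and TAC-3 hotspots formed a shared pair, while the 9006 bp interval was private by the rule, with its centre 417 bp from that of the middle TAC-1 hotspot. This site was described after its values were seen.

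Groups of 3 hotspots less than 100 kb apart occurred 6 times in TAC-1 and 1 time in TAC-3. The TAC-1 groups were on chromosome 2 (near 1.6 Mb and at the locus above), 3, 11, 32 and Y, and the TAC-3 group was on chromosome 32, where its first hotspot was inside eppk1. The TAC-1 group on chromosome 11 began inside fsta, which encodes a follistatin, and that on the Y chromosome inside tiam1a, which encodes a guanine nucleotide exchange factor. The chromosome 2 locus near 15.3 Mb was the only one of these groups that contained a shared hotspot.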
